A study of Mus musculus with 20 samples.

Results

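Messenger RNA of 10 genes that encode NF-κB subunits and the proteins that restrain them was followed in DC2 cells, an immortalized line of mouse principal cells from the distal caput epididymis. The genes were the rows of the deposited abundance tables whose symbol was Rela, Relb, Nfkb1, Nfkb2, Nfkbia, Nfkbie, Nfkbiz, Tnfaip3, Bcl3 or Birc3, 10 of 21509 genes (the members), and each was present once in both tables. In the flow experiment, 6 libraries came from cells perfused for 3 h at a shear of 1 dyn/cm2 (flow) and 6 from cells held for 3 h without shear (static). In the siRNA experiment, 4 libraries came from cells transfected with siRNA against Ift88, an intraflagellar transport gene needed to build primary cilia, and 4 from cells given control siRNA. According to the study's methods the Ift88 siRNA was a mix and the control a scrambled sequence, and the cells of the flow experiment were serum-starved in microfluidic channels. The study's text describes both siRNA groups as under flow, which their labels do not say. Its methods give a low-serum step for siRNA-treated cells in the calcium assays, and state no serum schedule for these libraries. All libraries come from a single cell line, and no label states that the replicates are separate cultures, so p-values measure the spread between these libraries.

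NF-κB is a family of transcription factors that bind DNA as dimers. RelA pairs with p50, made from Nfkb1, in the canonical arm, and RelB pairs with p52, made from Nfkb2, in the non-canonical arm. In resting cells inhibitors of the IκB group hold the dimers in the cytoplasm until a kinase complex marks them for degradation, and the freed dimers then raise transcription of several of their own inhibitors. IκBα (Nfkbia), IκBε (Nfkbie) and A20 (Tnfaip3, a ubiquitin-editing enzyme) are the classical products of that feedback, while IκBζ (Nfkbiz) and Bcl-3 act in the nucleus as co-regulators and cIAP2 (Birc3) is a ubiquitin ligase of TNF receptor complexes.

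Abundance is given as TPM, a transcript's share of a library scaled to a fixed total and corrected for transcript length. This allows levels of different genes to be set side by side. Changes are differences of log2(TPM + 1) between groups, which understate the change of low genes, with limma standard errors, and p-values are adjusted over all genes that averaged 1 TPM or more. A gene was called at an adjusted p under 0.05 and a change over 1.5-fold. The TPM hold no total of reads, so counting error could not be worked out. The title of flow replicate 6 and the column named in its description say flow, but its treatment label says static. The title was followed. Replicates 1 to 3 and 4 to 6 of the flow experiment lay apart on the first principal component, which held 34.4% of the variance, and the labels name no batch that would set them apart. Of 16 principal and epithelial cell markers, 4 (Pax2, Pax8, Krt18 and Krt19) averaged at least 1 TPM in both flow experiment groups, whereas Crisp1 was at 0 in every library and Aqp9 reached at most 0.413 TPM. Of 17 markers of other cell types, Cd68 and, in static cells, Dcn averaged at least 1 TPM there, and the summed level of the list was between 12.8 and 44.2 TPM under flow, between 15.9 and 69.6 TPM without it and between 91.0 and 104 TPM in the siRNA libraries. Of the immune markers, Ptprc and Adgre1 stayed at or under 0.0878 TPM in all 20 libraries and Cd3e was at 0. Csf1r lay between 0.122 and 1.34 TPM in the flow experiment and between 0.286 and 0.924 TPM in the siRNA experiment.

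In static cells Rela, Nfkb2 and Nfkb1 were the most abundant members. Rela led with 127 ± 6.64 TPM (SD, n = 6), followed by Nfkb2 with 94.1 ± 16.5, Nfkb1 with 51.0 ± 3.21, Nfkbia with 35.7 ± 9.18 and Relb with 29.0 ± 4.09. Tnfaip3 was at 17.3 ± 1.65, Nfkbiz at 13.7 ± 2.83, Birc3 at 5.96 ± 0.788, Nfkbie at 3.93 ± 0.775 and Bcl3 at 0.297 ± 0.118. Neighbours in this order whose library values overlapped were Rela and Nfkb2, Nfkb1 and Nfkbia, Nfkbia and Relb, Tnfaip3 and Nfkbiz, and Birc3 and Nfkbie. Under flow Nfkbia and Tnfaip3 moved up to the third and the fourth place, at 80.5 ± 51.1 and 79.7 ± 60.2 TPM, with library values that overlapped those of Nfkb2, Nfkb1 and each other.

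**Figure D1:**
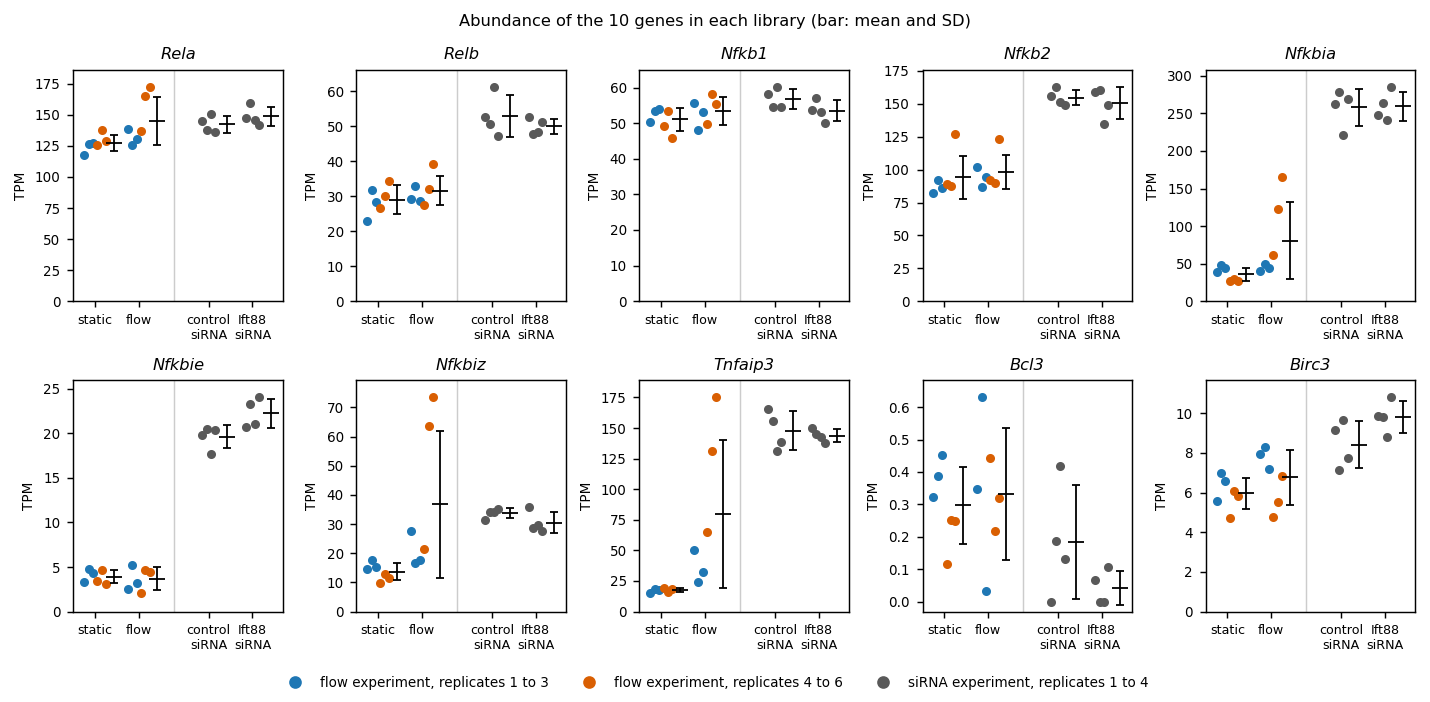
TPM of each of the 10 genes (1 panel per gene, linear axis) in the 6 static, 6 flow, 4 control siRNA and 4 Ift88 siRNA libraries. Points are libraries, coloured by replicate set in the flow experiment, and bars give the mean and SD. The flow libraries of Tnfaip3, from 24.2 to 175 TPM, all lie above its static libraries, which end at 19.1 TPM. The 2 experiments come from separate tables.

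Flow went with higher Tnfaip3, and with higher Nfkbia and Nfkbiz in some of the libraries, while the subunits stayed close to their static levels. None of the 9 members tested was called in the unpaired limma fit of flow against static (12 of 11388 genes, 0.105%, were called, and all 12 were higher under flow). At an unadjusted p under 0.05 there were 4 (Tnfaip3, Nfkbiz, Nfkbia and Rela), where 3.85% of all genes reached that level. Same-numbered flow and static libraries deviated together, which does not show that they are pairs. With the replicate number as a block Tnfaip3 was called, 1 of 9 members where 0.597% of all genes were called higher. The median change of the 9 members was 0.15, against -0.03 over all genes tested.

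Tnfaip3, which encodes A20, had the lowest flow value at 24.2 TPM, a median of 57.5 and the highest at 175. The static values ran from 14.8 over a median of 17.6 to 19.1 TPM. All 6 flow libraries therefore lay above all 6 static libraries, a separation that 0.492% of the tested genes showed in this direction. The ratio of the group means was 4.60, and the log2 change was 1.80 ± 0.38 (SE, 95% interval 0.98 to 2.63), with an adjusted p of 0.105 in the unpaired limma fit and 0.0302 with the replicate block. The call in the blocked fit was lost without pair 1 (adjusted p = 0.238), pair 4 (0.0835), pair 5 (0.0917) or pair 6 (0.0725) and held without pair 2 (0.0014) or pair 3 (0.0425), and in the unpaired fit leaving out flow replicate 2 gave an adjusted p of 0.00867, where calls over all genes went up as well, to 0.765%. With flow replicate 6 read as static, after its treatment label, the change was 1.04 with an adjusted p of 1.0. As in any bulk measurement, more cells with the transcript and more transcript per cell cannot be told apart.

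Nfkbia, which encodes IκBα, ranged under flow from 40.7 to 165 TPM with a median of 55.6, and in static cells from 26.6 to 48.2 TPM with a median of 34.3. The groups overlapped, since flow replicates 1 and 3, at 40.7 and 44.3 TPM, were below the highest static library. The log2 change was 0.98 ± 0.31 (95% interval 0.31 to 1.65), with an adjusted p of 0.691 in the unpaired fit and 0.302 with the block. Nfkbiz, which encodes IκBζ, ranged under flow from 16.6 to 73.4 TPM with a median of 24.5, and in static cells from 9.87 to 17.8 TPM with a median of 13.7. Of its flow libraries 5 exceeded every static library and flow replicate 2 did not. The log2 change was 1.13 ± 0.33 (95% interval 0.42 to 1.85), with an adjusted p of 0.462 unpaired and 0.193 with the block. Leaving out pair 2 from the blocked fit, an alternative chosen after seeing the data, brought Nfkbia, Nfkbiz and Tnfaip3 past the thresholds. The adjusted p was 0.0422 for Nfkbia and 0.0128 for Nfkbiz. In that fit 193 of 11362 genes (1.7%) were called, against 68 of 11388 with all pairs. With flow replicate 6 read as static, the log2 change was 0.42 for Nfkbia and 0.55 for Nfkbiz (adjusted p = 1.0 for both).

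**Figure D2:**
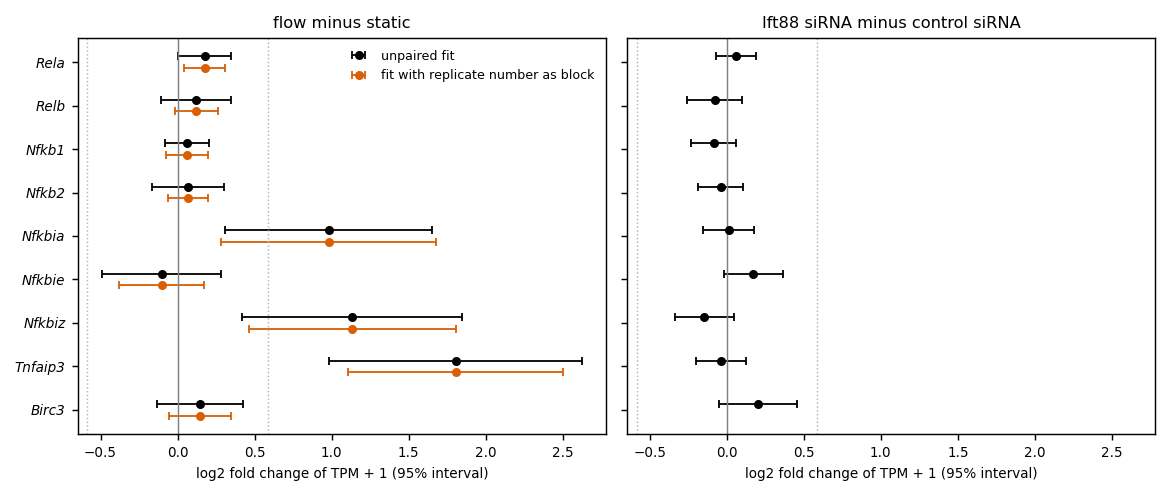
Log2 fold change of TPM + 1 with its 95% interval for the 9 tested members, flow minus static on the left and Ift88 siRNA minus control siRNA on the right; black, unpaired limma fit, and orange, the paired fit (replicate number as a block). Dotted lines mark 1.5-fold. Tnfaip3, Nfkbiz and Nfkbia lie at 1.80, 1.13 and 0.98 under flow, and the largest change in the siRNA comparison is that of Birc3, at 0.20.

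Tnfaip3, Nfkbia and Nfkbiz were further apart between flow and static in some pairs than in others. The Tnfaip3 ratio of flow to static TPM was 3.40, 1.30 and 1.90 in pairs 1, 2 and 3, and 3.38, 8.22 and 9.69 in pairs 4, 5 and 6. The Nfkbia ratio was 1.06, 1.02 and 1.02 in the first of these sets and 2.30, 4.07 and 6.20 in the other. The Nfkbiz ratio was 1.88, 0.933 and 1.16, and then 2.18, 4.95 and 6.34. Nfkbia was thus nearly level in pairs 1 to 3, where Tnfaip3 was higher in each flow library.

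Within replicates 1 to 3 alone the log2 change of Tnfaip3 was 0.98 ± 0.23 (adjusted p = 0.749), of Nfkbiz 0.32 ± 0.19 (adjusted p = 1.0) and of Nfkbia 0.04 ± 0.12 (adjusted p = 1.0). Within replicates 4 to 6 alone they were 2.63 ± 0.31 (adjusted p = 0.0147), 1.95 ± 0.40 (adjusted p = 0.171) and 1.92 ± 0.31 (adjusted p = 0.0537). Of all genes 0.0443% were called in the first set, none of them a member, and 0.49% in the other, where Tnfaip3 was the 1 member called. The difference of the responses (replicates 4 to 6 minus 1 to 3) was 1.87 ± 0.36 for Nfkbia, 1.64 ± 0.44 for Tnfaip3 and 1.62 ± 0.50 for Nfkbiz, with adjusted p of 0.43, 1.0 and 1.0 in the unpaired interaction fit, which called no gene (0%). With the block, Nfkbia was called (adjusted p = 0.0364), 1 of 9 members where 0.158% of all genes were called, and Tnfaip3 (0.389) and Nfkbiz (0.278) were not. Without flow replicate 4, the unpaired fit called all 3, and it called 34 of 11400 genes (0.298%). The adjusted p were 0.000153 for Nfkbia, 0.00276 for Nfkbiz and 0.0222 for Tnfaip3. The sets were chosen after they were seen to lie apart in these same data. The p-values within and between the sets are therefore no independent test and are given as a description.

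Static as well as flow levels lay apart between the sets for some members. Static Nfkbia was between 38.6 and 48.2 TPM in replicates 1 to 3 and between 26.6 and 30.0 TPM in replicates 4 to 6, and its flow values were between 40.7 and 49.4 and between 61.7 and 165 TPM. Static Nfkbiz likewise fell into separate ranges, 14.7 to 17.8 and 9.87 to 12.8 TPM, whereas static Tnfaip3 overlapped between the sets, at 14.8 to 18.7 and 16.0 to 19.1 TPM. The replicate sets are not a group of the labels, so these static ranges are a description.

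**Figure D3:**
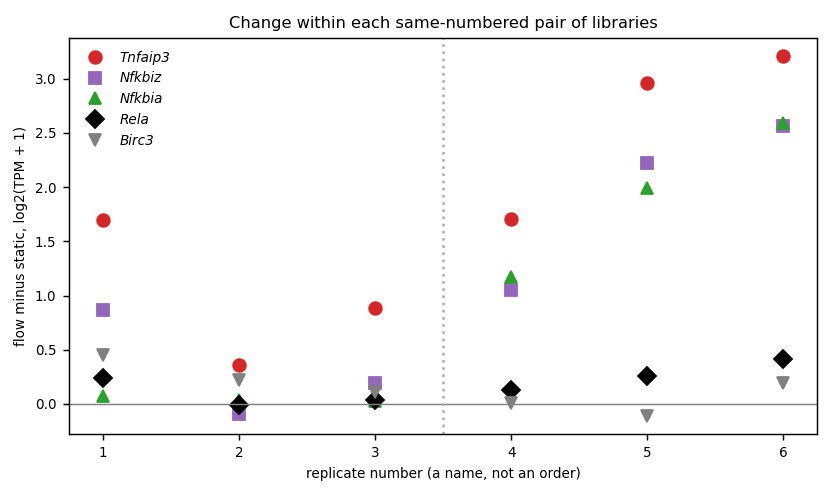
Flow minus static difference of log2(TPM + 1) within each same-numbered pair (x axis: replicate number, a name without order; dotted line between replicates 3 and 4) for Tnfaip3, Nfkbiz, Nfkbia, Rela and Birc3. In pairs 4 to 6 the first 3 genes lie between 1.05 and 3.21, while Rela lies between -0.01 and 0.41 over all 6 pairs.

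Among the subunits only small differences were seen. Rela, the main transactivating subunit, was higher in 5 of 6 pairs, with flow values from 126 over a median of 138 to 172 TPM and static values from 117 over 127 to 138 TPM. Its log2 change was 0.18 ± 0.08 (95% interval 0.00 to 0.35), with an adjusted p of 0.998 unpaired and 0.328 with the block. Relb, like Tnfaip3 and Nfkbia, was higher in all 6 pairs, a pattern that 1.98% of the tested genes showed. It was at 27.6 to 39.1 TPM (median 30.6) under flow and 22.8 to 34.5 TPM (median 29.2) in static cells. Its log2 change of 0.12 ± 0.11 (95% interval -0.11 to 0.35) was within the spread between libraries.

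Nfkb1, the gene of p105 and p50, had values from 47.9 to 58.2 TPM under flow (median 54.2) and from 45.9 to 54.0 TPM in static cells (median 51.9), with a log2 change of 0.06 ± 0.07. Nfkb2, the gene of p100 and p52, had values from 87.0 to 123 TPM under flow (median 93.6) and from 82.3 to 127 TPM in static cells (median 88.3), with a log2 change of 0.07 ± 0.11. The intervals of both, -0.08 to 0.21 and -0.17 to 0.30, lay inside 1.5-fold, as did those of Rela and Relb. Replicate 6 had the highest Nfkb2 in both arms, 123 and 127 TPM, against 82.3 to 102 TPM in the other 10 libraries of the experiment. The macrophage-associated lysosomal gene Cd68 was also highest there, at 39.6 TPM in the flow library and 64.0 TPM in the static library against 10.1 to 22.8 TPM in the other 10 libraries, and its part in the Nfkb2 values was not tested. Nfkb2 overlaps Psd, a gene on the opposite strand, and the strand setting of the quantification is not given in the sources used here.

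Within each library the members were also set against Rela. Rela transcripts made up between 42.5% and 47.8% of the summed TPM of Rela, Relb, Nfkb1 and Nfkb2 under flow (median 43.5%) and between 38.4% and 44.7% in static cells (median 43.0%), ranges that overlapped. The ratio of Nfkbia to Rela TPM was between 0.293 and 0.956 under flow (median 0.422) and between 0.205 and 0.381 in static cells (median 0.273). The ratio of Tnfaip3 to Rela was between 0.193 and 1.02 under flow (median 0.418) and between 0.116 and 0.153 in static cells (median 0.138), without overlap. These ratios are a description of the same values and carry no test.

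The remaining members did not share the pattern of Tnfaip3. Nfkbie, which encodes IκBε, was higher under flow in 3 of 6 pairs, with 2.07 to 5.20 TPM (median 3.82) under flow and 3.07 to 4.83 TPM (median 3.87) in static cells, and a log2 change of -0.10 ± 0.18 (95% interval -0.49 to 0.28). Birc3 had 4.77 to 8.27 TPM (median 7.0) under flow and 4.73 to 6.98 TPM (median 5.94) in static cells. It was higher in 5 of 6 pairs with a log2 change of 0.15 ± 0.13 (95% interval -0.13 to 0.43). Bcl3 was the lowest member, with flow values of 0.0328 to 0.632 TPM and static values of 0.118 to 0.453 TPM. It fell under the filter of 1 TPM in both experiments and was not tested.

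For Tnfaip3, Nfkbiz and Nfkbia, the tested genes with the nearest 6 pair changes were named as a description. Nearness was the root mean square difference on the log2 scale among 11388 genes. Nearest to Tnfaip3 were F3 (tissue factor, 0.27) and Trib1 (a pseudokinase, 0.36). Nearest to Nfkbiz were Rcan1 (a calcineurin regulator, 0.20), Adamts1 (a secreted protease, 0.27) and the chemokine gene Ccl2 (0.28). Nearest to Nfkbia were Rcan1 (0.32) and the chemokine genes Ccl7 (0.34) and Ccl2 (0.35). Rcan1 and Ccl2 stood in the lists of both Nfkbiz and Nfkbia, and neither F3 nor Trib1 did. These genes share the libraries from which the likeness was computed.

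NF-κB dimers bind a 10-base kappaB element, and the promoter sequences of the members are shown because the feedback genes among them are classical NF-κB targets. The consensus searched was 3 G, 1 purine, 2 bases of any kind, 2 pyrimidines and 2 C, on both strands, in RefSeq windows of 300 bases (250 before each start site and 50 from it, GRCm38.p6). Windows were given for 7 members, and 5 of the 7 held a match (71.4%), against 9.55% of the 27025 genes with a window, or 8.46% of 32851 windows. Nfkb2, Nfkbia, Nfkbie, Tnfaip3 and Bcl3 held a match, the windows of Rela and Birc3 did not, and no window of Relb, Nfkb1 or Nfkbiz was used here. The members were chosen as genes of this pathway, so the share is a description, and a match is not a bound site.

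Around each match, 30 bases are given in the direction of the gene with the consensus match in capitals and positions counted from the start site (+1), for the members and for the target genes Cxcl1 and Ier3, which are described among the pathway genes.
Tnfaip3 at -12 (chr10:19015403-19015432, minus strand): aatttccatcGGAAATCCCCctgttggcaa
Tnfaip3 at -125 (chr10:19015516-19015545, minus strand): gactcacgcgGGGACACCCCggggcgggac
Nfkbia at -29 (chr12:55492657-55492686, minus strand): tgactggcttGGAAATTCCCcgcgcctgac
Nfkbie at -106 (chr17:45555584-45555613, plus strand): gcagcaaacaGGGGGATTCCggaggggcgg
Nfkb2 at -39 (chr19:46304688-46304717, plus strand): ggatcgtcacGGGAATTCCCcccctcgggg
Nfkb2 at -11 (chr19:46304716-46304745, plus strand): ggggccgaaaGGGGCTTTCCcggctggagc
Bcl3 at +3 (chr7:19822734-19822763, minus strand): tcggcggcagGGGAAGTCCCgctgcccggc
Cxcl1 at -71 (chr5:90891164-90891193, plus strand): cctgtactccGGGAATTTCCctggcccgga
Ier3 at -92 (chr17:35821611-35821640, plus strand): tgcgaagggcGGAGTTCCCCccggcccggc

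The capitals mark the first match of each run. In the first Nfkb2 window a further match began 1 base later, at -38, and in Cxcl1 at -70, overlapping the one printed, and the other Nfkb2 start sites held matches at -236, -225 and +11, of which the last 2 are the same bases counted from different starts. The matches of Tnfaip3 at -125, of Nfkb2 at -39 and of Bcl3 read as the consensus on both strands. Tnfaip3, Nfkbia, Nfkb2 and Bcl3 each held a match within 30 bases of a start site, and of these Nfkb2 had a log2 change of 0.07 under flow and Bcl3 stayed under 1 TPM. The second Tnfaip3 start site held none.

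The 150 bases before the start of Nfkbia (chr12:55492648-55492797, minus strand, positions -150 to -1) are shown with the match in capitals, since Nfkbia was the 1 member called for a difference between replicate sets in the blocked fit.
Nfkbia upstream: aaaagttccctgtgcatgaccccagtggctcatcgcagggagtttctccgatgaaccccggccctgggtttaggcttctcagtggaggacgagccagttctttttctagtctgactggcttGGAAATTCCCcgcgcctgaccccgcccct

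**Figure D4:**
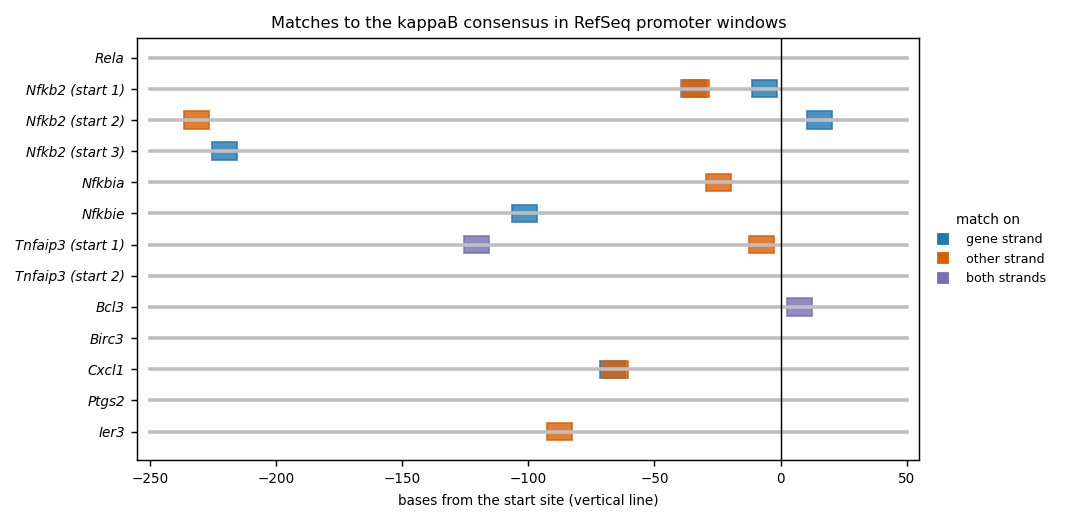
Positions of kappaB consensus matches (boxes) relative to the start site (vertical line) in the promoter windows of 7 members and of Cxcl1, Ptgs2 and Ier3, coloured by the strand of the match; the x axis is in bases. Nfkbia and Tnfaip3 have a box close to the start, and Rela, Birc3 and Ptgs2 have none in the 300 bases searched.

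In GENCODE M21 (GRCm38) Tnfaip3 lies at chr10:19000910-19015657, Nfkbia at chr12:55489410-55492647 and Nfkbiz at chr16:55811375-55838899, all on the minus strand, with no overlapping annotated gene. Rela (chr19:5637483-5648130) and Nfkb2 (chr19:46304320-46312385) are on the plus strand of the same chromosome, and Relb (chr7:19606217-19629438) and Bcl3 (chr7:19808462-19822770) are on the minus strand of another. Nfkb1 (chr3:135584655-135691547) and Birc3 (chr9:7848699-7873186) are on minus strands, and Nfkbie (chr17:45555703-45563169) is on a plus strand. Bcl3 overlaps antisense genes on the opposite strand, Nfkb2 overlaps Psd and a non-coding gene on the opposite strand, and Nfkb1 overlaps Gm43430, a model still to be experimentally checked, on its own strand.

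The silenced gene was examined in every library as a check of the labels. Ift88 had 1.71, 1.27, 1.28 and 0.917 TPM in Ift88 siRNA replicates 1 to 4, and 4.21, 4.08, 4.15 and 4.12 TPM in the control siRNA libraries. The groups did not overlap, and the log2 change was -1.17 ± 0.13 with an adjusted p of 0.00212.

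No member passed the test with Ift88 siRNA. In the limma fit 0 of 9 members were called, where 0.223% of 11209 genes were called, and 0 of 9 reached an unadjusted p under 0.05, where 13.9% of all genes did. Their median change was -0.04, against 0.02 over all genes, and every 95% interval lay inside 1.5-fold, the widest reach being that of Birc3 up to 0.46. The siRNA groups did not overlap in the number of genes above 0 TPM, at 15713 to 16682 with Ift88 siRNA and 15292 to 15382 with control siRNA, and its part in the values of this comparison was not tested.

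Nfkbia was at 248, 264, 242 and 285 TPM with Ift88 siRNA and at 262, 279, 222 and 269 TPM with control siRNA. Tnfaip3 was at 150, 145, 143 and 137 TPM with Ift88 siRNA and at 166, 156, 131 and 139 TPM with control siRNA. Nfkbiz was at 35.9, 28.6, 29.7 and 27.7 TPM with Ift88 siRNA and at 31.3, 34.1, 34.1 and 35.3 TPM with control siRNA. The groups of these 3 genes overlapped. The log2 changes were 0.01 ± 0.08 for Nfkbia (95% interval -0.16 to 0.18), -0.04 ± 0.07 for Tnfaip3 (-0.20 to 0.13) and -0.14 ± 0.09 for Nfkbiz (-0.34 to 0.05). The direction for Nfkbia turned with median-of-ratios scaling, to -0.01.

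Nfkbie was the 1 member of 9 whose siRNA groups did not overlap, with higher values after Ift88 silencing, a separation that 5.79% of all genes showed in this direction. It was at 20.7, 23.3, 21.0 and 24.0 TPM with Ift88 siRNA and at 19.9, 20.5, 17.7 and 20.4 TPM with control siRNA. The log2 change was 0.17 ± 0.09 (95% interval -0.02 to 0.36) with an adjusted p of 0.403. Birc3 was at 9.83, 9.79, 8.81 and 10.8 TPM with Ift88 siRNA and at 9.15, 7.12, 9.67 and 7.72 TPM with control siRNA, and 3 of its Ift88 siRNA libraries exceeded every control. Its log2 change was 0.20 ± 0.12 with an adjusted p of 0.457.

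The subunits were likewise close. Rela ranged from 142 to 159 TPM with Ift88 siRNA and from 136 to 151 TPM with control siRNA, a log2 change of 0.06 ± 0.06. Relb had 47.8 to 52.5 and 47.1 to 61.2 TPM (log2 change -0.08 ± 0.08), Nfkb1 had 50.1 to 57.2 and 54.5 to 60.1 TPM (-0.09 ± 0.07), and Nfkb2 had 135 to 161 and 149 to 163 TPM (-0.04 ± 0.07). All of these ranges overlapped. Bcl3 was listed at 0 in 2 Ift88 siRNA libraries and 1 control library and reached at most 0.417 TPM. The Rela share of the 4 subunits was between 35.8% and 38.2% with Ift88 siRNA and between 33.9% and 35.6% with control siRNA, so the shares did not overlap although no single subunit passed the test.

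Nfkbia, Nfkbie, Relb and Nfkb2 stood higher in the siRNA experiment than in the flow experiment. Nfkbia was between 222 and 285 TPM in all 8 siRNA libraries, above the highest flow library at 165 TPM, and Nfkbie was between 17.7 and 24.0 TPM against at most 5.20 TPM in the flow experiment. Relb was between 47.1 and 61.2 TPM against at most 39.1 TPM, and Nfkb2 between 135 and 163 TPM against at most 127 TPM. Tnfaip3, at 131 to 166 TPM, and Nfkbiz, at 27.7 to 35.9 TPM, were within the range of the flow libraries, and Rela at 136 to 159 TPM, Nfkb1 at 50.1 to 60.1 TPM and Birc3 at 7.12 to 10.8 TPM overlapped theirs. The ratio of Nfkbia to Rela was between 1.47 and 2.03 in the siRNA libraries and at most 0.956 under flow. The experiments are separate tables with no common library, so experiment and transfection cannot be told apart and no test was made between them. Cd68 was also higher, at 87.1 to 98.9 TPM against at most 64.0 TPM, and its part in these levels was not tested.

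Around the members, 91 further genes of the pathway were followed in 7 lists, of which 73 passed the filter in the flow experiment. A single one, Ptgs2 (the inducible cyclooxygenase), was called higher under flow in the unpaired fit and none lower, where 0.105% of all genes were called. The blocked fit added Ier3 (an early response gene), 2 of 73, where 0.597% of all genes were called higher. Ptgs2 ranged from 6.92 to 53.8 TPM under flow, and its log2 change was 2.11 ± 0.37 (adjusted p = 0.0493 unpaired, 0.00155 with the block). The Ptgs2 call was lost without flow replicate 1, 4 or 5 or any single static library. Ier3 had a log2 change of 1.64 ± 0.38 (adjusted p = 0.145 unpaired, 0.00774 with the block, a call lost without pair 1).

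Of the 17 target genes tested 12 had a positive change, with a median of 0.12, from C3 (complement) at -0.27 to Cxcl1 (a neutrophil chemokine) at 2.62. Cxcl1 had flow values from 110 to 1903 TPM and static values from 36.0 to 111 TPM. Its adjusted p was 0.192 unpaired and 0.123 with the block. Csf2, named after its values were seen, had a log2 change of 1.93 ± 0.53 (adjusted p = 0.389 unpaired, 0.145 with the block). Of 13 receptors tested none was called, with a median of 0.01 and changes from Tlr3 at -0.23 to Tlr2 at 0.72, both sensors of microbial products. Of 12 genes of the kinase complex and upstream kinases none was called, with a median of -0.01 and changes from Tab3 at -0.18 to Map3k14, the kinase of the non-canonical arm, at 0.33.

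Of 17 adaptors and ubiquitin ligases none was called, with a median of 0.0038 and changes from Rnf31 at -0.21 to Irak2 at 0.45. Of 11 other ubiquitin-editing and feedback regulators tested none was called, with a median of 0.0022, from Tnip2 at -0.13 to Zc3h12a (an RNase that degrades inflammatory transcripts) at 0.58. The further subunit Rel was at 0.35 and the inhibitor gene Nfkbib at 0.11, neither called. Of 11 ligands, 10 averaged under 1 TPM and only Tnfsf12 was tested, at -0.15. Counting over the 73 genes, 8 reached an unadjusted p under 0.05 in the unpaired fit, and 15 with the block, where 3.85% and 11.1% of all genes did. The lists were chosen with earlier results of these data known, so these counts are a description.

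In the siRNA comparison 2 of 75 pathway genes tested were called, both target genes, where 0.223% of all genes were called. Ccl5, a T cell chemokine, was higher with Ift88 siRNA, at 148 to 176 TPM against 53.6 to 71.9 TPM (log2 change 1.30 ± 0.09, adjusted p = 5.01e-05). Ccl20, another chemokine, was lower, at 3.45 to 5.54 TPM against 6.72 to 8.0 TPM (log2 change -0.69 ± 0.14, adjusted p = 0.0485), and its call was lost without Ift88 siRNA replicate 1, 2 or 4 or any single control library. Of the 18 target genes tested 16 had a negative change, with a median of -0.29 against 0.02 over all genes, between groups that also differed in the number of genes above 0 TPM, and 11 of 18 reached an unadjusted p under 0.05, where 13.9% of all genes did. With median-of-ratios scaling 17 of 18 were negative. The list was chosen with earlier results of these data known, so these counts are a description.

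At an adjusted p under 0.05 with no fold threshold 3 more pathway genes passed, and they were chosen for naming after their values were seen. Cxcl1 differed by -0.42 ± 0.07, Map3k14 by 0.45 ± 0.09 and Tnip1, whose product assists A20, by 0.35 ± 0.07. Map3k14 and Tnip1 were the highest of their lists, in which Ripk1 at -0.14 and Otud7b at -0.33 were the lowest. Adaptors and ubiquitin ligases lay between Xiap at -0.15 and Irak2 at 0.33 (median 0.09), receptors between Il17rc at -0.06 and Tnfrsf11a at 0.45 (median 0.09), and Rel and Nfkbib at -0.08 and 0.06. The only ligand tested, Tnfsf12, was at 0.24. In the same libraries the intervals of Nfkbia and Tnfaip3 lay inside 1.5-fold on both sides.

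**Figure D5:**
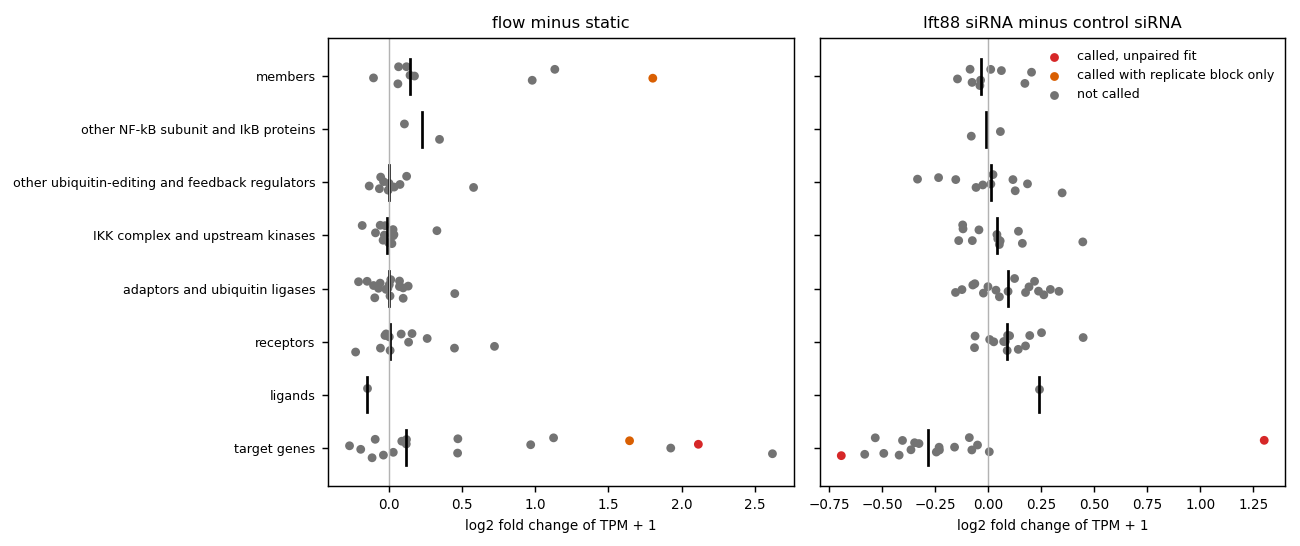
Log2 fold change of TPM + 1 for every tested member and pathway gene by list, flow minus static on the left and Ift88 siRNA minus control siRNA on the right, on axes of different range. Each point is a gene, the black bar is the median of the list, and colour marks genes called in the unpaired fit or with the block alone. Under flow Tnfaip3, at 1.80, stands beside the target genes Ier3, Csf2, Ptgs2 and Cxcl1. With Ift88 siRNA the target genes have a median of -0.29 while the members have -0.04.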

How the data were processed

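RNA was measured in 20 libraries of DC2 cells, grouped by their labels. The authors deposited TPM for 21509 protein-coding genes in 2 tables, each library summing to 1000000. Per the study's methods, poly(A)-selected directional libraries were read in pairs, trimmed with Trimmomatic, assigned with kallisto to the Ensembl mouse transcriptome, summarised with tximport and tested with a count model. The submitters' processing notes name fastp 0.20.0, FastQC 0.11.8, MultiQC 1.8 and kallisto 0.46.2. TPM are no counts, so count tests were not used, and precision is limited by unknown depth.

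From the deposited TPM, log2(TPM + 1) was fitted with limma 3.58.1 in R 4.3.3 (lmFit, eBayes with trend) per experiment over the genes that averaged 1 TPM or more, adjusted by Benjamini-Hochberg over all of them and 1.5-fold as threshold. The fits were tested on simulated data. Alternatives covered library weights, leaving out each library, no filter, the replicate block, 0.1 as pseudocount, scaling by median of ratios, the label of flow replicate 6 and replicates 1 to 3 or 4 to 6 alone. The replicate block without each pair was chosen after seeing the data.

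Flow and static libraries share replicate numbers in their titles. Across genes, libraries that share a number deviated from their group means alike. Their correlations were 0.294 to 0.662, above 0.1 in each of the 6 pairs, and for 4 of the 6 numbers they were each other's best match. Replicates 1 to 3 and 4 to 6 lay apart in both arms, so libraries of the same set could deviate alike without being pairs. The correlations therefore do not settle whether the numbers mark pairs. The fit stayed unpaired, so errors, intervals and list values are from it, and values with the block are named as such.

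The members and the gene lists were chosen with earlier results of these data known. All members are named, with pathway genes called in the unpaired or blocked fit, the lowest and highest of each list, Ift88, and the 3 genes nearest to each member whose mean pair change exceeded 0.5, of which 1 is not reported here. Other steps ran in Python 3.11.15 with pandas 2.3.3, numpy 2.4.6 and, for plots, matplotlib 3.10.9. Gene positions are from GENCODE M21 and promoter windows from RefSeq, both on an older build than the authors' annotation.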

Additional observations from a re-analysis of the deposited data

Results flagged for a closer look

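Nfkb2 in static replicate 6 was at 127 TPM, far from the other 5 static libraries, which ended at 92.4 TPM. Its gap was 0.775 of the range of the group. Of 40 groups of libraries examined for the 10 genes this was the 1 that stood out in this way, and chance alone gives about 1 in 20.

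The response of Nfkbia to flow differed between replicates 4 to 6 and replicates 1 to 3 by 1.87 on the log2(TPM + 1) scale in the fit with the replicate block (adjusted p = 0.0364). In the unpaired fit the same difference had an adjusted p of 0.43. The sets were chosen after they were seen to lie apart in these same data, so the difference is a description. The range of adjusted p over the unpaired alternatives was 0.000153, without flow replicate 4, to 1.0.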

How the results depend on the processing

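Members called under flow numbered 0 in the unpaired fit and 1 (Tnfaip3) with library weights, with the replicate block and in replicates 4 to 6 alone, and between 0 and 1 when single libraries were left out. Blocked fits without 1 pair each, chosen after seeing the data, called between 0 and 3, while calls over all genes ran from 8 to 193 in those fits, 68 with all pairs, 86 with library weights and 12 unpaired. For the difference between replicate sets the count was 0, with the block 1, and between 0 and 3 without single libraries. Pathway genes called under flow numbered 1, and 0 without the filter, in replicates 1 to 3 alone and with flow replicate 6 as static, 2 with library weights and with the block, 3 in replicates 4 to 6 alone, and 0 to 4 without single libraries; blocked fits without 1 pair called 1 to 9. In the siRNA comparison 2 pathway genes were called, 1 without the filter and with a pseudocount of 0.1, and 5 with no fold threshold. The count was 1 to 2 without single libraries, and 1 to 2 in blocked fits without 1 pair. Library weights called Csf2 besides Ccl5 and Ccl20, and the blocked fit without replicate 3 called Csf2 besides Ccl5.

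In the siRNA experiment the same-numbered libraries had correlations of 0.0464, 0.00280, 0.259 and 0.176, above 0.1 for replicates 3 and 4 only. There the replicate block called 44 genes instead of 25 and still 0 members and 2 pathway genes, and for 2 of the 4 numbers the libraries sharing it were each other's best match. The Ift88 change stayed between -1.26 and -1.09 without single libraries, and lost its call in the blocked fit without replicate 4 (-1.09, adjusted p = 0.0609).

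Direction turned in small changes. Under flow Relb was at -0.0022 and Nfkb2 at -0.0565 with flow replicate 6 as static, Nfkb1 at -0.0106 in replicates 1 to 3 alone, and Nfkbie between -0.1938 and 0.0088 without single libraries. With Ift88 siRNA Nfkbia was at -0.0229 with library weights, -0.011 with median-of-ratios scaling, -0.0254 and -0.0123 in blocked fits without replicates 3 and 4, and between -0.0584 and 0.051 without single libraries. Likewise Tnfaip3 lay between -0.0911 and 0.0204 and Nfkb2 between -0.071 and 0.0144, and the blocked fit without replicate 3 gave 0.0106 for Relb and 0.0045 for Nfkb2. The cause of these shifts was not tested. TPM give no depth, so the precision of low genes such as Bcl3 cannot be stated.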
